A study of Mus musculus with 3 samples.

Results

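Among 1918 non-cycling Cd8 class T cells from mouse B16F10 melanoma tumors, 189 carried granzyme K transcripts without a detected transcript of the inhibitory receptor PD-1. The 189 Gzmk-high Pdcd1-undetected cells were chosen by transcript counts. The authors' annotation had to place a cell in the Cd8 class by both of its identity columns, which held for 2681 of the 5564 cells in the table. A cell also needed at least 1 UMI (unique molecular identifier, 1 counted transcript molecule) of Cd8a and Cd8b1 together, which left 2313 cells. It needed fewer than 2 UMIs summed over the division genes Mki67, Top2a, Cdk1 and Birc5, which left 1918 cells, called eligible here. At least 2 Gzmk UMIs were found in 440 of these, and 189 of the 440 had 0 Pdcd1 UMIs.

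B16F10 is a transplantable mouse melanoma line, implanted under the skin in matrigel. On day 1 after implantation purified T cells of an open repertoire went into the tail vein, CD4+ cells bearing the congenic marker CD45.1 or CD8+ cells bearing CD45.2, and the labels give the treatment as untreated. On day 11 the tumors of 10 mice were resected and pooled. The sort took CD4+ and CD4+CD8+ cells among the CD45.1+ cells and CD8+ and CD8+CD4+ cells among the CD45.2+ cells. Each of the 4 populations was marked with its own hashtag antibody, and all were loaded together as 1 droplet library of about 6200 cells, read from the 5′ end of transcripts. The table numbers the hashtags 1 to 4, and the labels do not tie a number to a sorted population. All groups here are therefore groups of cells within 1 library of pooled mice. No test between conditions was possible, no p-value is given, and every interval covers counting error alone.

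Granzyme K is a serine protease of cytotoxic granules. In mouse and human CD8 T cells it marks memory and effector memory states, often together with the T-box transcription factor Eomes and the chemokine Ccl5. PD-1, encoded by Pdcd1, is induced by T cell receptor signals and stays on cells that meet antigen repeatedly. In tumors, granzyme K-expressing cells are described both before and beside the more dysfunctional PD-1-high states, with loss of Ccr7, a receptor for lymph node chemokines, as cells leave the naive and central memory pool.

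Gzmk and Gzma lie next to each other on mouse chromosome 13, with 0 protein-coding genes between them in the RefSeq annotation of GRCm38.p6. Gzma spans chr13:113093824-113100981 and Gzmk chr13:113171630-113180965, both on the minus strand. Their promoters are shown because the pair's neighbour, Gzma, was among the genes with the largest difference in the cells chosen by Gzmk. The windows run from 250 bases before to 50 bases after the annotated start, at chr13:113180916-113181215 for Gzmk and chr13:113100932-113101231 for Gzma, written 5′ to 3′ on the gene's strand. Capitals mark matches on either strand to the T-box core GGTGTG or to the RUNX core TGTGGT, which reads ACCACA on the opposite strand.
Gzmk: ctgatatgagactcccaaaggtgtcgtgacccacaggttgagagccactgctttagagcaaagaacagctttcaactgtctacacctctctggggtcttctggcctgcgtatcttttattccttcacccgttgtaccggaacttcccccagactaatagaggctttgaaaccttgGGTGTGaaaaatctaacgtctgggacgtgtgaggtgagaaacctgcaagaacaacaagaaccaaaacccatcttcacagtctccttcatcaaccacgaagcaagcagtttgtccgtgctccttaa
Gzma: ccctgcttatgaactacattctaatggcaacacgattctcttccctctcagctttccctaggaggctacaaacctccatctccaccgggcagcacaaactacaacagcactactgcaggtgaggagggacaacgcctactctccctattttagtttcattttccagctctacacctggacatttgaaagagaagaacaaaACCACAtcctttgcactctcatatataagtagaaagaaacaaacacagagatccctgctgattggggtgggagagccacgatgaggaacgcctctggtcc
The Gzmk window held 1 T-box match, at position -75 from the start, and 0 RUNX matches. The Gzma window held 1 RUNX match, at -50 on the opposite strand, and 0 T-box matches. Of 32851 RefSeq promoter windows of this length, 19.0% held the T-box letters and 16.8% the RUNX letters, so either match is common. A match describes letters only.

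The Gzmk-high Pdcd1-undetected cells made up 9.85% of the eligible cells (exact binomial 95% interval 8.56 to 11.3%). By hashtag number their share was 8.29% (17 of 205 cells) in number 1, 12.6% (77 of 611) in number 2, 8.72% (58 of 665) in number 3 and 8.47% (37 of 437) in number 4. Number 2 was the highest, and its interval of 10.1 to 15.5% overlapped those of the other numbers. The cells had a median of 3690 UMIs (range 2046 to 17034), against 3830 UMIs (501 to 23946) in the 1729 other eligible cells, and the median mitochondrial share was 1.27% against 1.42%.

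Values of the genes that chose the cells are a description. The Gzmk-high Pdcd1-undetected cells had a median of 3 Gzmk UMIs and at most 12, and 75 of the 189 had exactly 2. Their summed Gzmk level was 815 CPM, against 793 CPM in the 251 cells with at least 2 Gzmk UMIs and a Pdcd1 UMI. CPM are UMIs scaled to a common total that leaves out T cell receptor and immunoglobulin genes. The share of eligible cells with a Pdcd1 UMI was higher at higher Gzmk counts. It was 41.9% at 0 Gzmk UMIs, 50.2% at 1, 52.8% at 2, 57.8% at 3 to 4, 60.9% at 5 to 8 and 68.8% at 9 or more. Median depth in the same bins was 3784, 3620, 3782, 4066, 4629 and 5610 UMIs, so the upper bins were also deeper, and the part of depth in this order was not tested. Of the 251 Pdcd1-positive cells, 92 (36.7%) had a single Pdcd1 UMI, so 0 Pdcd1 UMIs marks a cell in which the transcript was not detected and not one that lacks it.

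Of the 3 markers of the label, Gzmk was the rule itself and the other 2 were both higher in the Gzmk-high Pdcd1-undetected cells. The label was chosen with earlier results of these data known, so these values describe the cells and do not test it. Ccl5, a chemokine that attracts T cells and monocytes, reached 17546 CPM, against 9051 CPM in the other eligible cells (1.94-fold, exact conditional 95% interval 1.90 to 1.97). It was detected in 186 of 189 cells, against 1537 of 1729, and in 47.8% of Cd4 class cells without Foxp3 UMIs. Eomes was at 94.0 CPM (exact Poisson interval 74.1 to 118), against 56.4 CPM in the other eligible cells (1.67-fold), and was detected in 27.5% of cells, against 16.7%. In Cd4 class cells without Foxp3 UMIs, which should hold little Eomes, 1.14% had a UMI at a median of 3364 UMIs per cell, so the share in both Cd8 sets stood above that background. With each cell thinned to 2000 UMIs the Eomes shares were 13.8% and 9.21%, and the fold was 1.47, under the size rule used below.

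The eligible cells were divided by the 2 genes of the rule, Gzmk (at least 2 UMIs, called Gzmk-high, or 0 to 1, called Gzmk-low) and Pdcd1 (at least 1 UMI, called positive, or undetected). The sets held 189 Gzmk-high Pdcd1-undetected, 251 Gzmk-high Pdcd1-positive, 836 Gzmk-low Pdcd1-undetected and 642 Gzmk-low Pdcd1-positive cells. Ccl5 stood at 17546 CPM in Gzmk-high Pdcd1-undetected, 14432 CPM in Gzmk-high Pdcd1-positive, 7105 CPM in Gzmk-low Pdcd1-undetected and 9154 CPM in Gzmk-low Pdcd1-positive cells. Eomes followed the same division, at 94.0 and 85.0 CPM in the Gzmk-high sets without and with Pdcd1, against 49.1 and 53.2 CPM in the Gzmk-low sets. Il7r, the survival receptor for interleukin 7, was divided by Gzmk the other way. It was at 187 CPM in Gzmk-high Pdcd1-undetected and 180 CPM in Gzmk-high Pdcd1-positive cells, against 515 CPM in Gzmk-low Pdcd1-undetected and 428 CPM in Gzmk-low Pdcd1-positive cells.

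**Figure D1:**
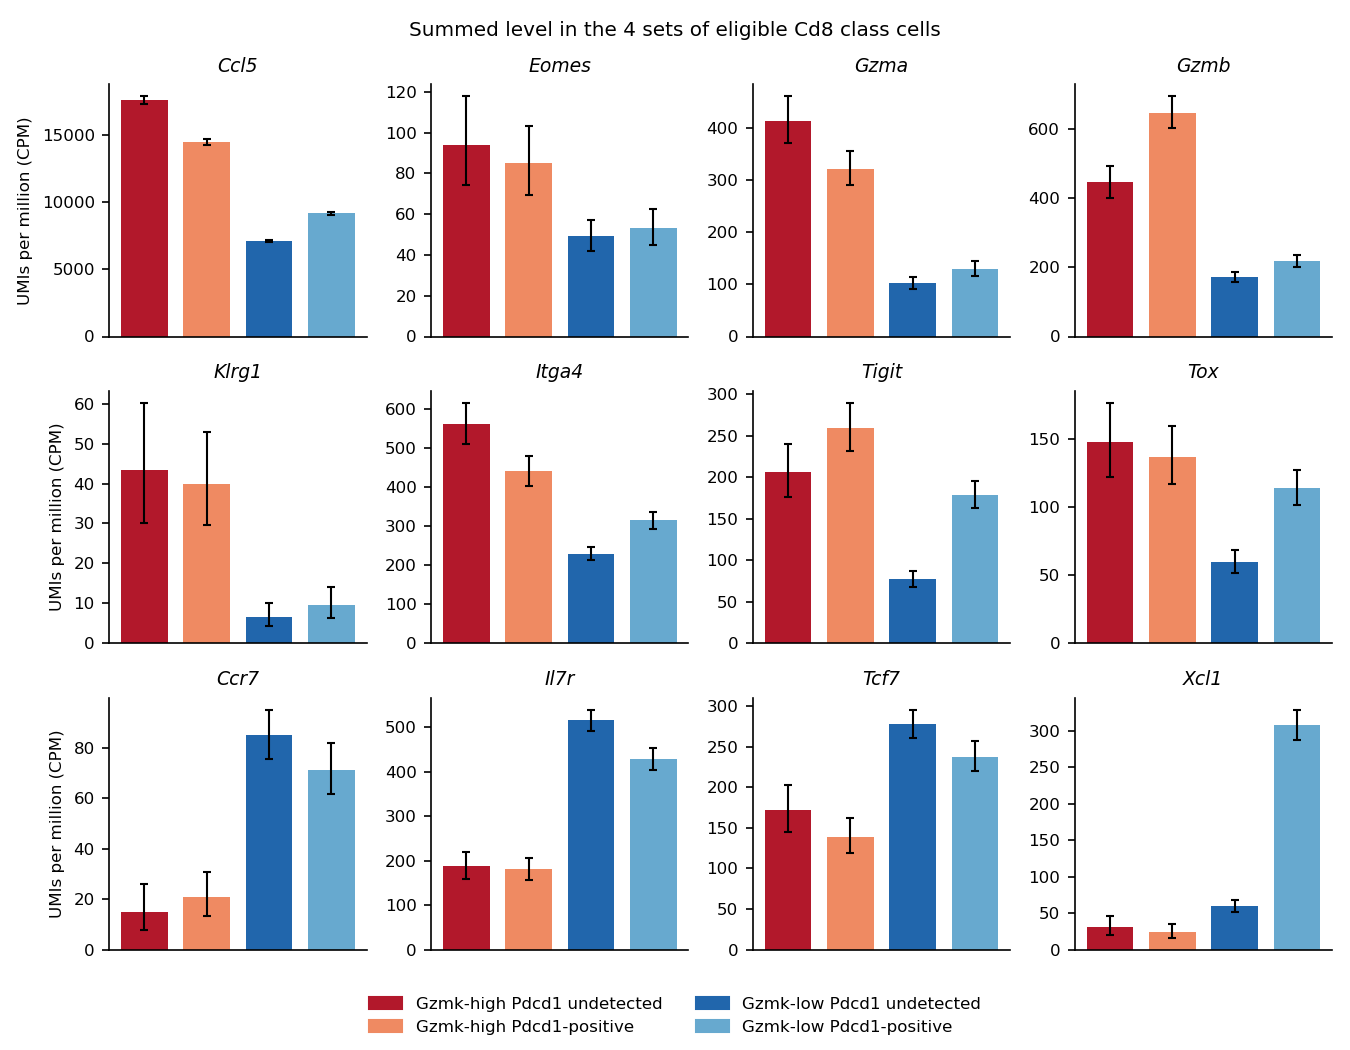
Summed level in CPM of 12 genes (1 panel each) in the 4 sets of eligible cells, with exact Poisson 95% intervals that cover counting error only. Ccl5, Eomes, Gzma, Gzmb, Klrg1 and Itga4 are higher in both Gzmk-high sets, Il7r, Ccr7 and Tcf7 are higher in both Gzmk-low sets, and Xcl1 is high in Gzmk-low Pdcd1-positive cells (308 CPM).

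Against all other eligible cells, a gene passed the size rule when its summed level differed at least 1.5-fold, the interval of the ratio left out 1 and the sets together held at least 50 of its UMIs. Of 8403 genes with enough UMIs, 178 were higher (2.12%) and 291 lower (3.46%) in the Gzmk-high Pdcd1-undetected cells, and the median log2 ratio over all of them was -0.01. These are descriptive counts over cells of 1 library. The genes of the rule and T cell receptor genes were left out.

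Granzyme and killing genes were partly higher. Gzma, a granzyme with trypsin-like activity, was at 413 CPM in the Gzmk-high Pdcd1-undetected cells, against 148 CPM in the other eligible cells (2.79-fold, 2.46 to 3.16). By hashtag number 1 to 4, Gzma was at 99.5, 427, 367 and 597 CPM in the Gzmk-high Pdcd1-undetected cells, against 94.7, 231, 107 and 137 CPM in the other eligible cells. The 2 sets were close in number 1 and apart in the other 3. Few cells carried it: 45 of 189 (23.8%) against 160 of 1729 (9.25%), with 22.5% of the UMIs of the first set in 1 cell and a fold of 2.40 without the highest cell of each set. In Cd4 class cells without Foxp3, 6.55% had a Gzma UMI at a median of 3364 UMIs, against 5.86% of Gzmk-low Pdcd1-undetected cells. Their summed levels were 115 and 102 CPM. The Cd4 class cells held 702 Gzma UMIs in 109 cells, and whether their share is background or expression was not tested.

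Gzmb, the granzyme that cleaves caspases, was at 447 CPM in Gzmk-high Pdcd1-undetected cells, against 267 CPM in the other eligible cells (1.67-fold). In hashtag number 4 it ran the other way, at 152 against 256 CPM, and without number 2 the fold was 1.31. Prf1, the pore-forming perforin, was at 96.5 against 55.6 CPM and Fasl, the Fas ligand, at 135 against 89.1 CPM. Of the 15 measured genes of cytotoxic granules and death ligands, 4 were higher (Gzma, Gzmb, Prf1 and Fasl) and 1 was lower (Gzmc, 0 UMIs against 52, of which 67.3% lay in 1 cell), with a median log2 ratio of 0.17. Nkg7, a granule membrane protein, was at 2940 against 2420 CPM and did not pass.

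The larger differences upward included the receptor genes Klrg1 and Itga4. Klrg1, an inhibitory receptor of effector CD8 T cells that binds cadherins, was at 43.3 CPM (30.2 to 60.2) in the Gzmk-high Pdcd1-undetected cells, against 13.2 CPM (3.29-fold, 2.17 to 4.89). It was higher in all 4 hashtag numbers, on 35 UMIs in the first set. In number 1, which held 17 of these cells, Klrg1 was at 14.2 against 8.96 CPM. It was detected in 14.8% of cells, against 3.82% of the other eligible cells and 3.19% of Cd4 class cells without Foxp3. The last 2 shares were close to each other, while 26.4% of Cd4 class cells with Foxp3 UMIs carried Klrg1. Itga4, the integrin alpha 4 chain that binds VCAM-1, was at 683, 517, 649 and 457 CPM in hashtag numbers 1 to 4 of the Gzmk-high Pdcd1-undetected cells, against 279, 315, 295 and 275 CPM in the other eligible cells. Every number was thus higher, and the values of the 2 sets did not overlap. Over all numbers Itga4 stood at 561 against 294 CPM (1.90-fold), with a UMI in 78.3% of cells against 46.7%, and 42.3% of Cd4 class cells without Foxp3 also carried it.

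Entpd1, the ectoenzyme CD39 that degrades extracellular ATP, was at 40.8 against 15.7 CPM (2.59-fold), and Cd38, an NAD-consuming ectoenzyme, at 55.7 against 27.8 CPM. Plac8, a small cysteine-rich protein, was at 596 against 311 CPM. Other genes named for the size of their difference were Camk2n1, an inhibitor of the kinase CaMKII, at 44.5 against 16.6 CPM but at 6.35 against 22.2 CPM in hashtag number 4, and Actn2, an actin cross-linking protein best known from muscle, at 64.3 against 25.6 CPM. Wdr95 stood at 95.3 against 44.5 CPM, Htatip2 at 85.4 against 43.3 CPM, and Ube2c, a ubiquitin-conjugating enzyme of mitosis, at 37.1 against 17.5 CPM although dividing cells had been removed by other genes. Prss2, a trypsinogen, was at 64.3 against 19.8 CPM (11 of 189 and 46 of 1729 cells). It lies inside the T cell receptor beta locus at chr6:41521776-41525079, before the Trbd1 segment that starts at 41533201, so whether its reads came from the receptor locus is uncertain.

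Ccr9, a chemokine receptor known for homing to the small intestine, had a higher summed level in the Gzmk-high Pdcd1-undetected cells than in each of the other 3 sets, on few UMIs. It was singled out after its values were seen. Its level was 44.5 CPM (31.2 to 61.7), against 5.83 CPM in Gzmk-high Pdcd1-positive, 6.35 CPM in Gzmk-low Pdcd1-undetected and 4.80 CPM in Gzmk-low Pdcd1-positive cells. The sets held 36, 7, 22 and 13 Ccr9 UMIs in that order. With either Pdcd1-positive set the UMIs together were fewer than the size rule asks for. Against Gzmk-low Pdcd1-undetected cells Ccr9 passed, and kept its call in 8 of 17 other settings, with too few UMIs in the rest. Settings that only lowered the UMI minimum could not remove the call of Ccr9. In hashtag numbers 1 to 4 it was at 14.2, 60.2, 32.3 and 44.4 CPM, against 3.84, 5.19, 2.54 and 12.3 CPM in all other eligible cells. Each number was higher, on 36 UMIs in 16 of 189 cells against 42 UMIs in 23 of 1729 cells (7.82-fold, 4.87 to 12.5). Number 1 held 17 of the 189 cells, so its 14.2 CPM rests on few transcripts. The cell with most Ccr9 held 22.2% of the UMIs, and the fold without the highest cell of each set was 7.74. Ccr9 is also a marker of plasmacytoid dendritic cells. Of the Ccr9 UMIs in the Gzmk-high Pdcd1-undetected cells, 61.1% lay in the 24.3% of cells where macrophage or MHC class II genes had 2 UMIs or more, against 57.1% in 22.9% of the other eligible cells. Without cells with markers of macrophages, B cells or melanoma cells the fold was 7.14 on fewer UMIs than the size rule asks for. Without cells holding at least 10 UMIs of dendritic cell markers other than Ccr9, Bst2 and Irf8 it was 9.90. That condition was added after seeing the data.

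**Figure D2:**
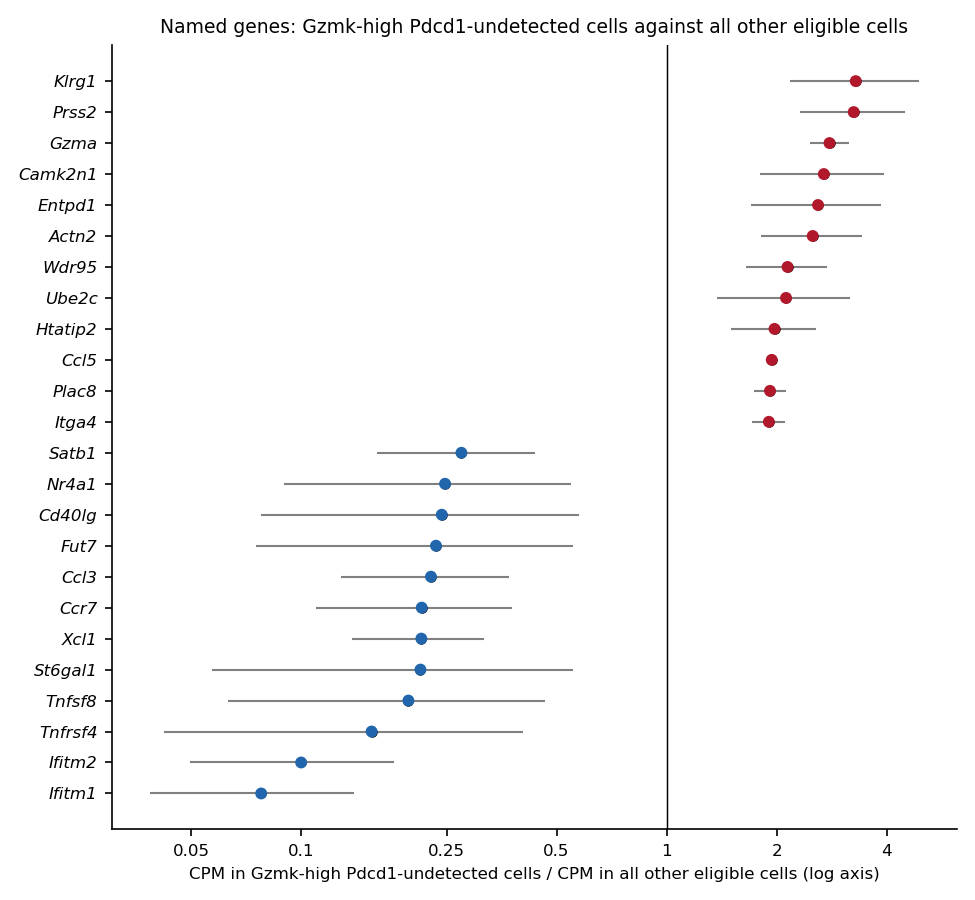
Ratio of summed CPM on a log axis, Gzmk-high Pdcd1-undetected cells over all other eligible cells, for the 12 named genes with the highest and the 12 with the lowest ratios, with exact 95% intervals of counting error. Klrg1 (3.29) and Prss2 (3.25) lie farthest to the right, and Ifitm1 and Ifitm2 farthest to the left.

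Downward, some naive and central memory genes were lower. Of 16 measured genes of that list, 0 were higher, 7 lower and 9 did not pass, with a median log2 ratio of -0.59, against -0.01 over all genes measured. Ccr7, the receptor for lymph node chemokines, was at 14.2, 15.0, 20.2 and 6.35 CPM in hashtag numbers 1 to 4 of the Gzmk-high Pdcd1-undetected cells, against 64.0, 53.8, 73.9 and 84.1 CPM in the other eligible cells. The values of the 2 sets did not overlap, but those of the first set rest on 12 UMIs in all. The pooled level was 4.68-fold lower (2.65 to 9.11). Satb1, a chromatin organizer of naive T cells, stood at 22.3 against 81.1 CPM (3.64-fold lower). Il7r was at 187 against 429 CPM. Dapl1, a gene of naive and memory T cells, was at 78.0 against 215 CPM. Bach2, a repressor of effector genes, and Il6ra, the interleukin 6 receptor, were also lower at 4.95 against 14.1 CPM and 9.90 against 20.3 CPM, on few UMIs in the first set.

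Tcf7, which encodes the stem-like memory factor TCF-1, did not pass at 172 against 240 CPM. Of the 25 measured transcription factors of effector and memory CD8 T cells, 4 were higher (Eomes, Klf3, Tox and Ikzf3) and 3 lower (Id3, Bach2 and Satb1), with a median of 0.06. Tox, a factor of chronically stimulated T cells, was at 147 against 92.0 CPM, and without hashtag number 3 its fold of 1.44 no longer passed. Tbx21, the T-box factor T-bet, stood at 96.5 CPM in Gzmk-high Pdcd1-undetected, 93.3 CPM in Gzmk-high Pdcd1-positive, 89.8 CPM in Gzmk-low Pdcd1-undetected and 105 CPM in Gzmk-low Pdcd1-positive cells. It did not follow the division that Eomes followed.

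Ifitm1 and Ifitm2, membrane proteins that restrict viral entry, had the lowest ratios of the genes named by rank. Ifitm1 was at 13.6 against 175 CPM (12.9-fold lower, 7.16 to 25.8) and Ifitm2 at 13.6 against 136 CPM. Of the UMIs in the other eligible cells, 47.9% for Ifitm1 and 79.9% for Ifitm2 lay in cells where macrophage or MHC class II genes had 2 UMIs or more. Without cells bearing macrophage, B cell or melanoma markers Ifitm1 was 6.38-fold and Ifitm2 7.23-fold lower, and both still passed. By set, Ifitm1 was at 86.7 CPM in Gzmk-high Pdcd1-positive cells and at 199 and 184 CPM in Gzmk-low cells without and with Pdcd1, all above the 13.6 CPM of the Gzmk-high Pdcd1-undetected cells. Few cells carried it: 7 of 189 (3.70%) in Gzmk-high Pdcd1-undetected, against 5 of 251 (1.99%) in Gzmk-high Pdcd1-positive, 58 of 836 (6.94%) and 59 of 642 (9.19%) in Gzmk-low cells without and with Pdcd1. In the Gzmk-high Pdcd1-positive cells 1 cell held 44.2% of the Ifitm1 UMIs, so by share of cells the 2 Gzmk-high sets stood in the other order.

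Among chemokines, effector cytokines and costimulatory genes, more genes were lower than higher against all other eligible cells. Of 7 measured chemokines, 2 were higher (Ccl5 and the interferon-induced Cxcl10) and 5 lower (Ccl1, Ccl3, Ccl4, Ccl9 and Xcl1), with a median of -1.31. Cxcl10 ran the other way with at least 4 Gzmk UMIs and with the rule on thinned counts, and its fold was 1.08 without the highest cell of each set. Of 8 effector cytokines, 0 were higher and 4 lower (Ifng, Il2, Csf2 and Tnfsf14), with a median of -0.71. Ifng, interferon gamma, was at 60.6 against 127 CPM, but it was detected in 19.0% of the Gzmk-high Pdcd1-undetected cells, against 14.3% of the other eligible cells (11.6% and 7.99% with each cell thinned to 2000 UMIs). Its call was lost without the highest cell of each set (1.39-fold lower), without hashtag number 4 (1.24-fold) and in thinned cells (1.42-fold). Of 18 costimulatory genes 0 were higher and 5 lower, among them the receptor gene Tnfrsf4, which encodes OX40, at 4.95 against 31.7 CPM and Cd40lg, the CD40 ligand, at 6.19 against 25.5 CPM. The Gzmk-high Pdcd1-undetected cells held 4 UMIs of Tnfrsf4 and 5 of Cd40lg. Of 15 early genes of T cell receptor signals 5 were lower, among them Nr4a1, an orphan nuclear receptor induced within hours, at 7.42 against 30.0 CPM (6 UMIs in the first set).

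For several of these genes the comparison cells were uneven. Xcl1, a chemokine for cross-presenting dendritic cells, was at 30.9 CPM in Gzmk-high Pdcd1-undetected, 24.2 CPM in Gzmk-high Pdcd1-positive, 59.8 CPM in Gzmk-low Pdcd1-undetected and 308 CPM in Gzmk-low Pdcd1-positive cells. Ccl4, a chemokine for monocytes and T cells, stood at 122, 95.01, 83.5 and 696 CPM in the same order of sets, and Ifng at 60.6, 38.3, 41.6 and 275 CPM. In summed level the Gzmk-low Pdcd1-positive cells were the high set for each of these genes. The share of cells with a UMI did not follow. For Ifng it was 19.0%, 14.7%, 11.6% and 17.8% in the same order of sets, for Ccl4 27.0%, 23.1%, 11.0% and 20.1%, and for Xcl1 6.35%, 7.97%, 8.25% and 8.10%. In Cd4 class cells without Foxp3, at a median of 3364 UMIs, these shares were 14.4% for Ifng, 3.19% for Ccl4 and 1.62% for Xcl1. Ccl3 was found in 7.94% of the Gzmk-high Pdcd1-undetected cells, against 5.44% of the other eligible cells, although its level was lower. In the other eligible cells, 1 cell held 38.1% of the Xcl1 UMIs, 34.9% of the Ccl3 UMIs and 39.1% of the Ifng UMIs. Xcl1 also differed by hashtag number, with log2 ratios of 0.75, -4.18, -0.08 and -3.99 in numbers 1 to 4. These ratios rest on 25 Xcl1 UMIs in the Gzmk-high Pdcd1-undetected cells. Other genes named by rank, Tnfsf8, the CD30 ligand, Ccl3, St6gal1, a sialyltransferase, and Fut7, a fucosyltransferase, were 4.28-fold to 5.09-fold lower. They rest on 5, 16, 4 and 5 UMIs in the Gzmk-high Pdcd1-undetected cells, and their intervals are wide (1.81 to 17.5 for St6gal1).

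Genes of inhibitory receptors and exhaustion were mixed against all other eligible cells, with 3 of 16 higher (Entpd1, Cd38 and Tox), 3 lower (Btla, Nr4a2 and Nrp1) and a median of 0.20. Nothing passed among 24 type I interferon response genes (median 0.23), 18 genes of proximal T cell receptor signalling (0.10), 16 S100, galectin and annexin genes (-0.01) and 24 nuclear genes of oxidative phosphorylation (0.08). Over all 8403 genes 2.12% were higher and 3.46% lower, so 0 in lists of this size is near that share. Against Gzmk-low Pdcd1-undetected cells 3 of 23 interferon genes were higher and 0 lower (median 0.39). With cells thinned to 2000 UMIs, 3 of 23 were higher and 0 lower against all other eligible cells. Of 15 cell division genes outside the rule, 2 were higher (Ube2c and Ccnb2) and 0 lower, with a median of 0.23. Ccnb2 kept its call in 9 of 17 other settings and lost it without the highest cell of each set. Against Gzmk-low Pdcd1-undetected cells 5 of 13 division genes were higher and 0 lower (median 0.39). Chemokine receptors gave 2 higher (Ccr9 and Cx3cr1, the fractalkine receptor) and 4 lower (Ccr6, Ccr7, Ccr8 and Ccr10) of 15, and residency genes 3 higher (Itga1, Itga4 and Rgs1) and 3 lower (Rgs10, Ccr8 and Xcl1) of 19. Cytokine receptor chains gave 1 higher (Il10ra) and 5 lower (Il7r, Il18r1, Il4ra, Il6ra and Il1r2) of 23, and NK receptors 2 higher (Klrg1 and Klrb1c) and 0 lower of 12. Of those 12 NK receptor genes, 4 had a positive and 8 a negative log2 ratio, with a median of -0.03.

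**Figure D3:**
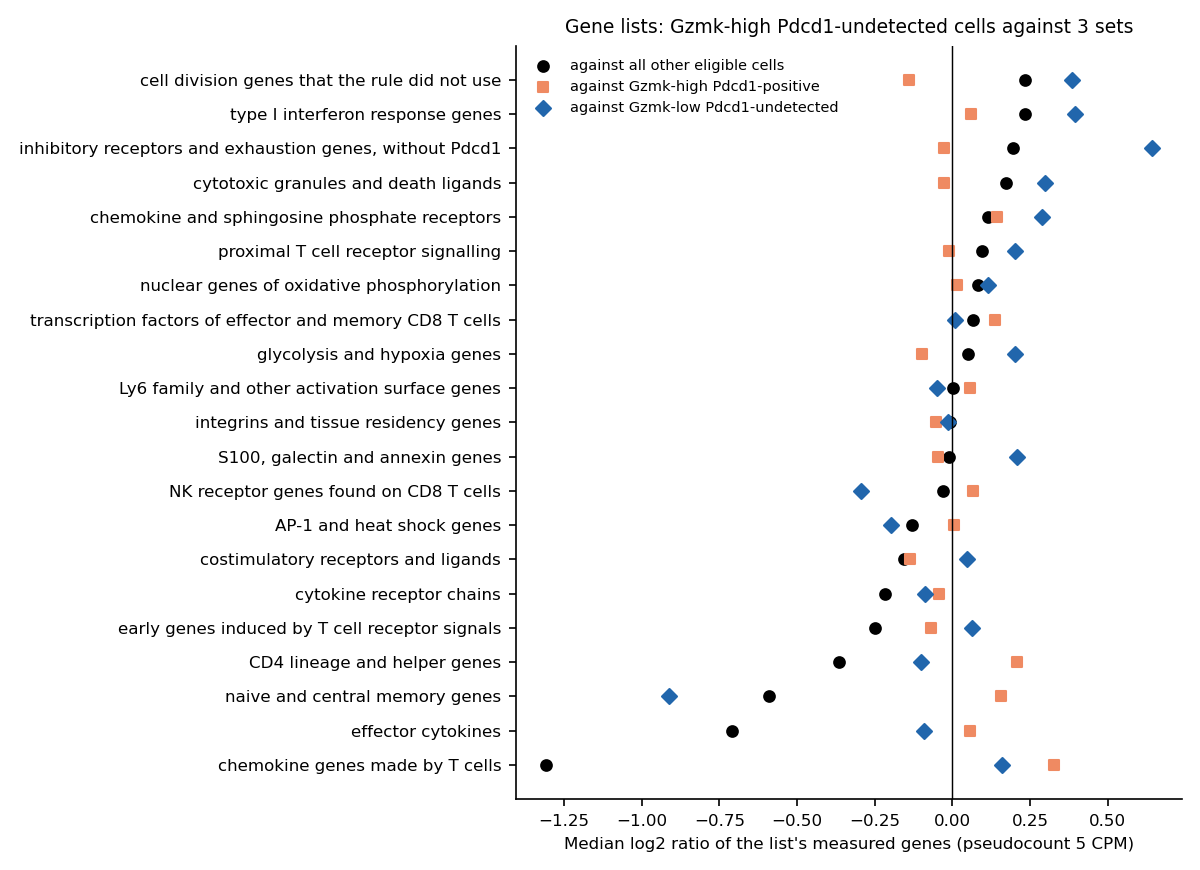
Median log2 ratio of the measured genes of each of 21 lists, Gzmk-high Pdcd1-undetected cells over the comparison cells, with a symbol for each of the 3 comparisons. Naive and central memory genes lie at -0.59 and -0.91 against all other eligible and Gzmk-low Pdcd1-undetected cells but at 0.16 against Gzmk-high Pdcd1-positive cells.

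Among cells without detected Pdcd1, the sets on either side of the Gzmk threshold differed in granzymes, inhibitory receptors and naive genes alike. Against the 836 Gzmk-low Pdcd1-undetected cells, 251 of 7002 genes were higher (3.58%) and 262 lower (3.74%). The 3 comparisons share the same 189 cells and the first comparison contains this set, so they are not independent. Gzma was at 413 CPM in the Gzmk-high Pdcd1-undetected cells, against 102 CPM in the Gzmk-low Pdcd1-undetected cells (4.04-fold, 3.47 to 4.71). Gzmb was at 447 against 172 CPM (2.60-fold), Ccl5 was 2.47-fold higher, and Wdr95 and Actn2 were 2.73-fold and 2.75-fold higher.

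Tigit, an inhibitory receptor for CD155, was at 207 against 76.8 CPM (2.69-fold, 2.20 to 3.28). Of 15 genes of inhibitory receptors and exhaustion, 7 were higher (among them Lag3, Tigit, Ctla4, Entpd1, Cd38 and Tox) and 2 lower (Btla and Nrp1), with a median of 0.64 against 0.02 over all genes measured. Tox stood at 147 against 59.5 CPM, Lag3, a receptor for MHC class II, at 105 against 53.4 CPM and Ctla4 at 76.7 against 40.4 CPM. Havcr2, which encodes TIM-3, was at 23.5 against 13.3 CPM and did not pass. These cells were chosen for having 0 Pdcd1 UMIs, and their Tox, Tigit and Ctla4 levels were near those of the Gzmk-high Pdcd1-positive cells (137, 259 and 78.3 CPM).

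Naive and central memory genes were lower again, with 0 of 16 higher and 9 lower and a median of -0.91. Satb1 was at 22.3 against 135 CPM (6.07-fold lower, 3.80 to 10.3), Ccr7 at 14.8 against 84.9 CPM and Il7r at 187 against 515 CPM. Tcf7 passed here at 172 against 278 CPM. Ifitm1, Ifitm2, Tnfsf8 and St6gal1 were 14.6-fold, 13.4-fold, 6.91-fold and 6.24-fold lower, on 11, 11, 5 and 4 UMIs in the Gzmk-high Pdcd1-undetected cells. All 12 genes named in this comparison by rank passed in all 17 of the other settings that kept the size rule.

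Cytotoxic genes gave 5 higher (Gzma, Gzmb, Prf1, Fasl and Serpinb6b, a granzyme-inhibiting serpin) and 0 lower of 14, chemokine receptors 4 higher (among them Cxcr6, Ccr9 and Cx3cr1) and 2 lower (Ccr7 and Ccr10) of 12. Cxcr6, the receptor for Cxcl16 that holds T cells in tumors, stood at 512 against 312 CPM. Transcription factors gave 5 higher (Eomes, Prdm1, Tox, Ikzf2 and Ikzf3) and 4 lower (Id3, Tcf7, Bach2 and Satb1) of 22. Prdm1 encodes Blimp-1, a repressor that drives terminal effector fate. Effector cytokines, with 0 higher and 1 lower of 8, no longer gave the low median seen against all other eligible cells.

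**Figure D4:**
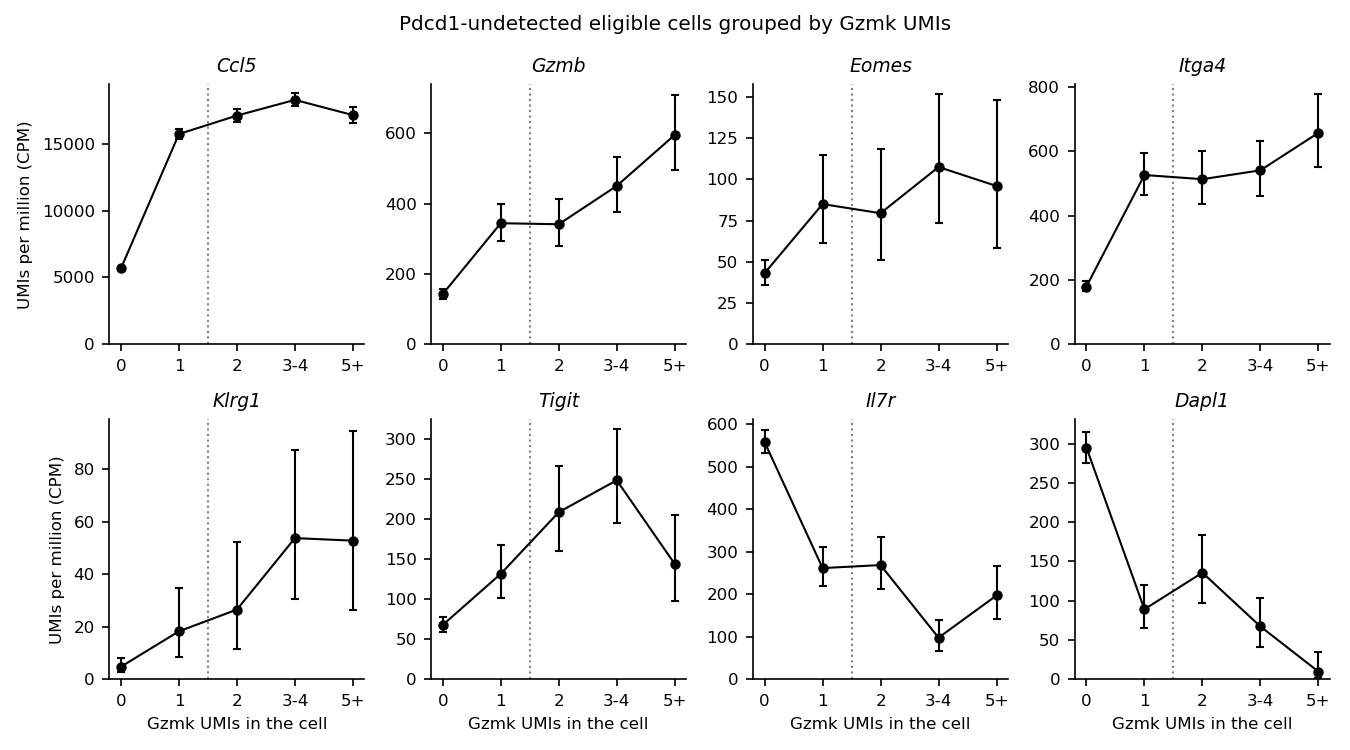
Summed level in CPM of 8 genes by Gzmk UMIs in the cell (0, 1, 2, 3 to 4, 5 or more) among Pdcd1-undetected eligible cells, with exact Poisson 95% intervals, and a dotted line at the threshold of the rule. Cells with 1 Gzmk UMI, just outside it, lie nearer to cells with 2 than to cells with 0 for Ccl5, Eomes and Itga4.

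For Ccl5, Itga4, Eomes and Ccr7 the largest step lay below the threshold of 2 Gzmk UMIs, while Gzma also stepped at it. Among cells without Pdcd1 UMIs, 701 had 0 Gzmk UMIs, 135 had 1, 75 had 2, 73 had 3 to 4 and 41 had 5 or more, at median depths of 3855, 3357, 3648, 3629 and 4275 UMIs. In that order Ccl5 was at 5670, 15725, 17105, 18278 and 17141 CPM, with the largest step between 0 and 1 UMI. Itga4 was at 180, 526, 513, 541 and 657 CPM, and Eomes at 43.1, 85.0, 79.5, 108 and 96.0 CPM, with the same step. Ccr7, at 96.7, 14.2, 23.2, 10.1 and 9.60 CPM, stepped down at the same place. Satb1, at 150, 48.6, 23.2, 16.8 and 28.8 CPM, was lower at 1 UMI and lower again at 2, where the intervals of 31.1 to 72.3 CPM at 1 UMI and 9.32 to 47.8 CPM at 2 overlapped.

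A few genes differed among the cells past the threshold. Klrg1 stood at 4.72, 18.2, 26.5, 53.7 and 52.8 CPM and Gzmb at 143, 344, 341, 450 and 595 CPM along the same bins, both highest in the upper bins. Gzma was at 69.4, 300, 659, 265 and 269 CPM, highest at exactly 2 Gzmk UMIs, and the intervals at 1 (253 to 352 CPM) and 2 (571 to 757 CPM) did not overlap. In each bin 1 cell held 22.3% to 53.6% of the Gzma UMIs, and without it the levels were 54.0, 224, 420, 166 and 130 CPM. Dapl1 stood at 295, 89.1, 136, 67.2 and 9.60 CPM and Tigit at 67.7, 132, 209, 249 and 144 CPM. These bins hold few cells, and no test over them was made.

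Against the 251 Gzmk-high Pdcd1-positive cells, differences lay in single genes, and the lists above showed few. Of 4791 genes with enough UMIs, 100 were higher (2.09%) and 87 lower (1.82%). The naive and central memory list had 0 of 11 genes past the size rule in either direction (median 0.16), as did the list of inhibitory receptors and exhaustion genes (0 of 13, median -0.03). The cytotoxic list had 0 higher and 1 lower of 13 (median -0.03). The Pdcd1-positive cells were also deeper, at a median of 4220 against 3690 UMIs, and a deeper cell more easily shows a UMI of Pdcd1.

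Individual genes still differed. Fos, a component of the AP-1 transcription factor, was at 145 CPM in the Pdcd1-undetected and 67.5 CPM in the Pdcd1-positive Gzmk-high cells (2.14-fold, 1.60 to 2.88), with 19.7% of the UMIs of the first set in 1 cell. It was the 1 gene of the 12 named here that passed in all 17 other settings. The settings among the 17 that only lowered the UMI minimum could not remove a call. Runx1, a transcription factor of T cell development, was at 74.2 against 37.5 CPM, Klf3, a repressor of the Kruppel-like family, at 158 against 88.3 CPM and Ergic2, a protein of the secretory pathway, at 71.8 against 39.2 CPM. Cx3cr1, which marks long-lived effector cells, was at 37.1 against 18.3 CPM, and Ifng was at 60.6 against 38.3 CPM. Ifng lost its call in 6 of the 17 other settings, among them those without hashtag number 2 (1.44-fold) or 3 (1.29-fold). Cx3cr1 kept its call in 6 of the 17 and had too few UMIs in the rest, and with the rule on thinned counts its fold was 0.807.

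Ifitm3, a relative of Ifitm1, was at 116 against 34.2 CPM, but 63.8% of its UMIs in the Pdcd1-undetected cells lay in 1 cell, and without hashtag number 4 the fold was 1.21. Cd74, the MHC class II invariant chain, was at 460 against 188 CPM with 90.9% of the UMIs in 1 cell. Without that cell it stood at 43.0 CPM, against 67.3 CPM in Gzmk-high Pdcd1-positive cells without their highest cell, and the difference reversed.

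Genes lower in the Pdcd1-undetected than in the Pdcd1-positive Gzmk-high cells included Tnfrsf9, the costimulatory receptor 4-1BB induced by antigen, at 22.3 against 58.3 CPM and lower in all 4 hashtag numbers. Tnfrsf9 lay outside the naming rule and was not followed through the other settings. Klrk1, which encodes the activating receptor NKG2D, was at 179 against 277 CPM, and Serpinb9, which protects killer cells from granzyme B, at 45.8 against 75.8 CPM. Klrk1 kept its call in 12 of the 17 other settings and Serpinb9 in 14. Gzmb was at 447 against 648 CPM and did not pass at 1.5-fold. The 6 lower genes named by rank were Mri1, a methionine salvage enzyme, Cdt1, a DNA replication licensing factor, Derl2, of endoplasmic reticulum protein disposal, Tuba1a, an alpha tubulin, Nelfb, a subunit of the elongation factor NELF, and Ccng2, a cyclin. They were 1.66-fold to 1.74-fold lower, and each lost its call in at least 1 other setting.

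**Figure D5:**
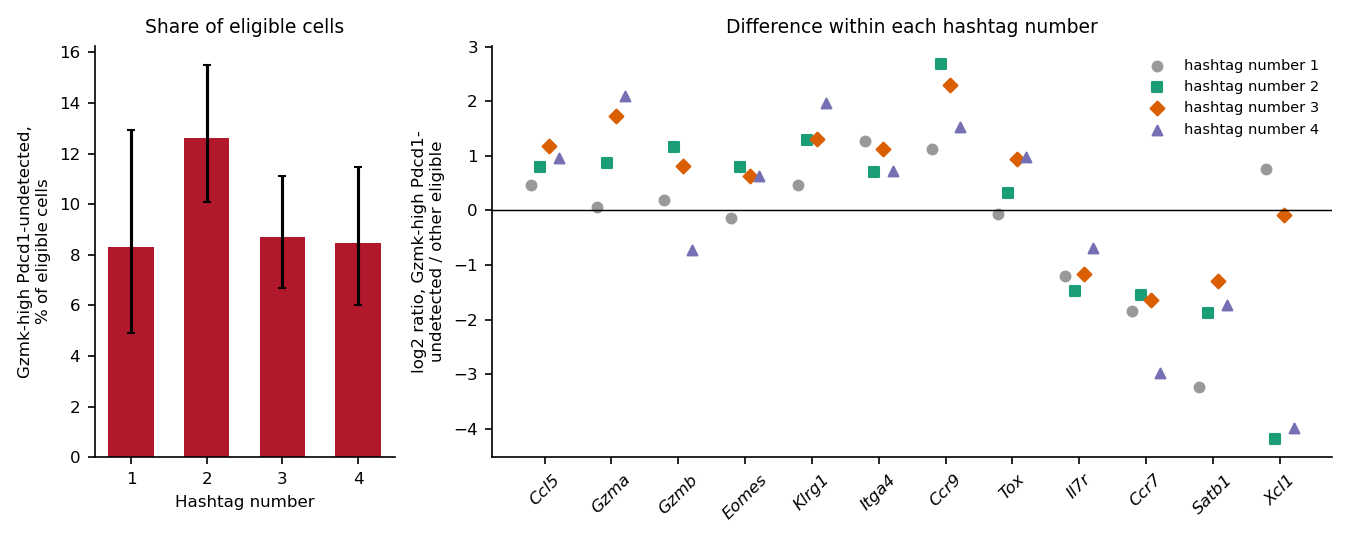
Left, share of Gzmk-high Pdcd1-undetected cells among eligible cells by hashtag number, with exact binomial 95% intervals. Right, log2 ratio (pseudocount 5 CPM) of 12 genes over all other eligible cells within each hashtag number: Ccl5, Klrg1, Itga4 and Ccr9 are higher and Il7r, Ccr7 and Satb1 lower in all 4, while Xcl1 runs from 0.75 to -4.18. Number 1 holds 17 of the Gzmk-high Pdcd1-undetected cells, and its values for Klrg1, Ccr9, Ccr7 and Xcl1 rest on few UMIs.

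Among single cells, a UMI of Tox, Tigit or Lag3 was found in 79.9% of the 189, against 82.1% of Gzmk-high Pdcd1-positive, 44.4% of Gzmk-low Pdcd1-undetected and 70.6% of Gzmk-low Pdcd1-positive cells. A UMI of Ccr7 or Il7r was found in 36.0%, against 33.1%, 63.6% and 56.7% in the same order. Gzma, Gzmb or Prf1 was detected in 63.5%, against 71.3%, 36.1% and 39.1%, and Klrg1 or Cx3cr1 in 24.3%, against 17.9%, 6.70% and 9.66%. Median depths were 3690, 4220, 3736 and 3770 UMIs in that order, and in Cd4 class cells without Foxp3 (3364 UMIs) the shares for the 4 gene groups were 34.1%, 59.1%, 26.4% and 3.79%. A gene with few UMIs per cell is missed in many cells that express it, and the groups of genes were put together after values were seen.

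Receptor beta chain usage was spread over several Trbv genes. A leading Trbv gene could be given to 181 of the 189 cells, with 16 Trbv genes seen. In the other eligible cells 20 were seen, over 1528 cells, and more cells can show more genes. Trbv12-1 led with 28.2% (51 cells), against 29.1% of the other eligible cells. Trbv29 followed with 16.0% against 10.9%, Trbv19 with 12.7% against 9.82%, and Trbv13-1 made up 6.08% against 12.96%. The receptor sequencing library was not analysed here, so these shares say nothing of clones.

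Some of the 189 cells held transcripts of other cell types or of more than 1 Trbv gene. Transcripts of more than 1 Trbv gene, each with 2 UMIs or more, were seen in 28 cells (14.8%), against 12.6% of the other eligible cells. A single T cell can carry transcripts of a pair of Trbv genes, and no doublet caller was run, so whether these were doublets was not tested. Markers of macrophages, B cells or melanoma cells, with 2 UMIs or more, were seen in 42 cells (22.2%), against 21.2%. The 14 macrophage markers summed to 678 CPM in the Gzmk-high Pdcd1-undetected cells, against 444 CPM in the other eligible cells, with 48.0% of the UMIs of the first set in 1 cell. Without the highest cell of each set they summed to 360 against 389 CPM, and the direction turned. The complement gene C1qa, at 95.3 against 9.90 CPM, had 94.8% of its UMIs in 1 cell. The 15 dendritic cell markers, among them Ccr9, Bst2 and Irf8, summed to 1472 against 2556 CPM, with 60.2% of the UMIs of the first set in 1 cell. Without the highest cell of each set they summed to 599 against 2407 CPM. NK cell markers summed to 402 against 328 CPM (316 against 317 CPM without the highest cells). That list includes Eomes, a marker of the label, at 94.0 against 56.4 CPM. Regulatory T cell markers summed to 658 against 817 CPM. Melanoma markers had 4 UMIs in all, and Pmel, Tyr, Tyrp1, Sox10 and Gpnmb were at 0. Without the cells bearing other-type markers, 147 of the 189 remained, and Gzma was 3.24-fold higher.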

How the data were processed

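The data were 1 droplet library of pooled, hashtagged T cells. The gene table holds UMI counts per cell deposited by the authors, not normalized, for 14811 genes and 5564 cells. Cell classes and hashtag numbers are other values, taken from the authors' deposited annotation, and the antibody table holds deposited counts as well. Cell Ranger 3.1.0, Seurat 3.2.3 and mm10 are named, per the submitters' processing notes, with no role given. The authors' filters on cells and any removal of doublets are not given in the sources used here. No doublet caller was run, and cells with 2 Trbv genes were left out in an alternative. Restricting the table to cells that passed unknown filters could change shares and levels.

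The UMIs of all cells in a set were added up and scaled to CPM without 118 T cell receptor and immunoglobulin genes (0.331% of UMIs). The sets held 808202 UMIs (Gzmk-high Pdcd1-undetected), 1199892 (Gzmk-high Pdcd1-positive), 3462857 (Gzmk-low Pdcd1-undetected) and 7371432 (all other eligible cells). Log2 ratios used a pseudocount of 5 CPM. Levels have exact Poisson intervals, ratios exact conditional binomial intervals and shares Clopper-Pearson intervals, all at 95%. UMIs from 1 cell are not independent, so these intervals are too narrow for differences between cells. A gene passed at 1.5-fold with an interval leaving out 1 and at least 50 UMIs. Hashtag numbers are not replicates. The named genes were the 12 highest and 12 lowest ratios in the first comparison and 6 and 6 in the others (at least 20 CPM, 100 UMIs and 5% of cells), list extremes and a set of known T cell genes. The cells, lists and rules were chosen with earlier results of these data known. Scripts used Python 3.11.15, numpy 2.4.6, scipy 1.17.1, pandas 2.3.3 and matplotlib 3.10.9, with edgeR 4.0.16 in R 4.3.3 for TMM scaling only, and were tested on simulated data. Alternatives were thinning, UMI minimums, scaling, weighting, cell exclusions, other Gzmk thresholds and leaving out each hashtag number. The hashtag and receptor libraries were not analysed here. Some genes of the lists are counted but not reported here by name.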

Additional observations from a re-analysis of the deposited data

Results flagged for a closer look

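The surface antibody counts were not used in the comparisons above and were sparse, with 123 counts over 138 antibodies in the 189 Gzmk-high Pdcd1-undetected cells, against 1032 in the 1729 other eligible cells. The isotype controls, 3 antibodies, had 0 counts and 1 count. Of 13 antibodies with at least 20 counts, 2 had a ratio whose exact interval left out 1, and both were picked after their values were seen. CD49d, the protein product of Itga4, had 10 counts in 8 cells (8.13% of the antibody counts), against 24 counts (2.33%) in the other eligible cells, a ratio of 3.50 (1.49 to 7.58). CD45.1, the congenic marker of the transferred CD4+ cells, had 7 counts in 7 cells (5.69%), against 16 counts (1.55%), a ratio of 3.67 (1.28 to 9.43). Both rest on few counts in 1 library.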

How the results depend on the processing

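No paired analysis was possible because there was 1 library and its hashtag numbers are not replicates. The counts of genes past the size rule, higher and lower, were 178 and 291 against all other eligible cells, 100 and 87 against Gzmk-high Pdcd1-positive cells and 251 and 262 against Gzmk-low Pdcd1-undetected cells. They depended on the rule. At 2-fold they were 62 and 184, 26 and 27, and 65 and 166. With a minimum of 200 UMIs they were 74 and 143, 6 and 3, and 72 and 70. Against Gzmk-high Pdcd1-positive cells, a minimum of 20 UMIs gave 171 higher genes, no minimum gave 238 and 149, leaving out cells with other-type markers 62 and 50, and at least 4 Gzmk UMIs 47 and 54. With cells thinned to 2000 UMIs, 168 genes were lower against all other eligible cells, 44 higher and 32 lower against Gzmk-high Pdcd1-positive cells, and 125 lower against Gzmk-low Pdcd1-undetected cells, where the mean of per-cell CPM gave 415 lower. Leaving out each gene's highest cell in both sets, added after seeing the data, gave 83 and 490 against all other eligible cells. That step takes a larger share from the smaller set. The share of the cells among eligible cells, 9.85%, was 16.9% with at least 1 Gzmk UMI, 5.94% with at least 3, and 8.06% with the rule on thinned counts. Leaving out 1 hashtag number gave 8.57 to 10.5%.

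Of the genes named by rank, 20 of 24 against all other eligible cells passed in all 17 settings that kept the fold and a UMI minimum under 200, as did 12 of 12 against Gzmk-low Pdcd1-undetected cells and 1 of 12 against Gzmk-high Pdcd1-positive cells. The 17 include a UMI minimum of 20 and no minimum, which could not remove a call, so these counts of settings overstate what was tried. TMM scaling shifted log2 ratios by -0.04, -0.03 and -0.05. The log2 ratios of 55 genes against all other eligible cells were recomputed. Each was set against its counting interval, widened on both sides by the shift from the pseudocount except where the pseudocount itself was changed. Of the values, 1082 stayed within these limits, 73 moved beyond them and, where the gene had passed, 0 changed sign. Of the genes named by rank, 0 of 24 changed sign in any setting against all other eligible cells, 0 of 12 against Gzmk-low Pdcd1-undetected cells and 5 of 12 against Gzmk-high Pdcd1-positive cells. Those 5 were Runx1, Nelfb, Cdt1 and Ifitm3, in 1 setting each, and Cd74, which was lower without cells with 2 Trbv genes (5.42-fold), without hashtag number 4 (5.37-fold) and without each set's highest cell (1.58-fold). With 1 library and few UMIs per cell, a gene under 50 UMIs could not be compared, and whether differences hold between mice was not tested.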
